A study of Homo sapiens with 6 samples.

Results

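Long intergenic non-coding RNAs with names numbered LINC01000 and above were examined in U-2OS cells, a human osteosarcoma line, after knockdown of SFPQ under transcriptional stress. They were selected on name and on total count, as the rows of the deposited count table whose name is LINC0 followed by a digit from 1 to 9 and 3 more digits, and whose counts over the 6 libraries summed to at least 60. LINC01405, one of the strongest risers of the table, was left out of the set. The total over both groups is a measured value and entered the choice, so it is given as a description. This gave 295 rows of 35036 in the table. A further 725 rows with such names had no count at all and 791 had a total of 1 to 59. Just inside the threshold were LINC01284, LINC01010 and LINC02970, with totals of 60 each, and just outside it LINC01970 with 58 and LINC02942 and LINC01122 with 57 each.

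All 6 libraries came from cells treated with actinomycin D, a DNA-binding inhibitor of transcription; 3 had received a control siRNA (SiCtrl) and 3 an siRNA against SFPQ (SiSFPQ). SFPQ is an RNA-binding protein of the nucleus that takes part in transcription, splicing and the paraspeckle, a nuclear body. No library without actinomycin D was analysed here, the cells were of 1 line, and the sources used here gave no siRNA sequences, drug dose or duration. The table holds non-coding genes, so the knockdown was not checked on SFPQ and the groups rest on their labels. Table totals spanned 1385532 to 1533974 counts over the SiCtrl libraries and 1298658 to 1599566 over the SiSFPQ ones. These totals belong to the table and are not the sequencing depth. Of 10 non-coding markers of blood, epithelium and neurons found in the table, 6 had at most 6 counts over all libraries. ELF3-AS1 had 364 to 412 counts per SiCtrl library and 364 to 426 per SiSFPQ library, LINC00926 68 to 92 and 35 to 46, ITGB2-AS1 29 to 43 and 12 to 15, and PCED1B-AS1 5 to 6 and 1 to 3. Their part in the results was not tested.

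Intergenic RNAs are transcribed from stretches between coding genes and are often spliced and polyadenylated like messenger RNA. Many are retained in the nucleus, are made in few cell types and are present at low levels. The LINC symbol is a placeholder given in order of registration to genes without a functional name, so the number itself carries no information on function. Some have been shown to act on chromatin, splicing factors or messenger RNA stability, and for most no role is known.

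The members were mostly spliced and sparsely counted. The median listed exonic length was 5483 bases, the median genomic span 44.1 kb and the median of the highest exon number per transcript 3 among the 283 members found in GENCODE release 29. The median total was 208 counts and the highest 4788. Member starts lay a median of 56.2 kb from the nearest start of a coding gene. The name intergenic did not hold for every row: 67 members overlapped the span of a coding gene, 14 overlapped coding exons and 33 started within 5 kb of a coding start on the opposite strand. As many as 197 overlapped another row of the table with at least 1 count. These overlaps were taken over whole spans, introns included, so they need not mean shared exons. Strand did not separate MALAT1 and TALAM1, its antisense row, which held 72563 and 72552 counts in total. Where a member shares exons with a partner, the partner's reads therefore may not be told from its own. Counts of overlapping rows could also be unlike: LINC02780 held 3898 and its largest overlapping row 68. The members together held 1.62% to 1.66% of all counts in the SiCtrl libraries and 1.72% to 1.76% in the SiSFPQ libraries. As CPM, counts scaled to library size with TMM factors, their sum was 16995 ± 226 in SiCtrl and 17314 ± 167 in SiSFPQ (SD, n = 3 each), and with plain library totals 16335 ± 270 and 17388 ± 197. The highest SiCtrl value under TMM, 17255, lay above the lowest SiSFPQ value, 17124. In bulk RNA, fewer cells with a transcript and less of it per cell cannot be told apart.

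The comparison asked which of these RNAs changed with SFPQ knockdown in the presence of the drug. Rises and falls both occurred, with a few large rises among them. Of the 294 members that passed the low-count filter, 88 rose and 64 fell with the knockdown and 142 were not called; a call here is an adjusted p under 0.05 (edgeR quasi-likelihood test, Benjamini-Hochberg over all 6325 tested rows). DESeq2 called 43 higher and 32 lower on the unfiltered table and 54 and 42 on the rows that edgeR's filter kept. Over all tested rows 24.5% were called higher and 24.0% lower, 48.4% in all. The member shares were 29.9% and 21.8%, close to that background. A log2 fold change of at least 1 was reached by 27 called higher and 10 called lower members of the 294. Over all 6325 tested rows, 434 (6.86%) and 340 (5.38%) did so. The values of the groups did not overlap for 169 members, or 57.5%, against 54.0% of all tested rows. Member log2 fold changes had a median of 0.09, with quartiles of -0.39 and 0.53, beside 0.01, -0.38 and 0.40 for all tested rows. Without SiCtrl replicate 2 the member median was 0.039. LINC01166, with a total of 64, was the member that the filter removed.

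**Figure D1:**
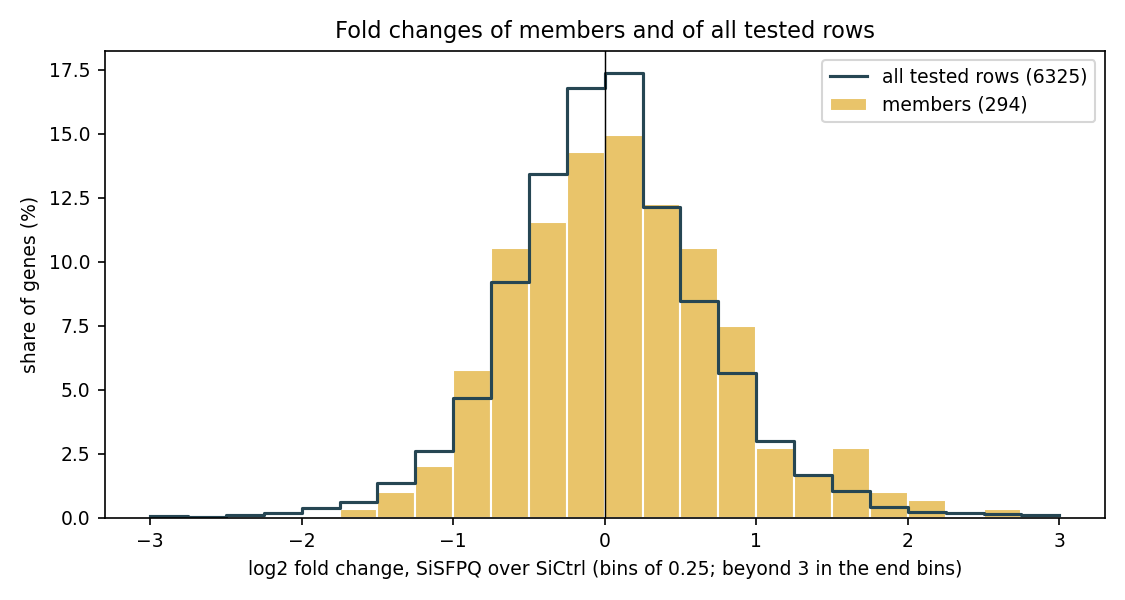
Share of genes (%, vertical axis) per bin of log2 fold change of SiSFPQ over SiCtrl (horizontal axis) for the 294 tested members (bars) and all 6325 tested rows (line). The members centre at 0.09 and all rows at 0.01, and the called members reach from -1.54 to 2.56.

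The total of 60 counts bears on these numbers. It was reached by 31 members with fewer than 30 counts in the lower group. A member that is this low in 1 group could enter through the other group alone. Of the 30 such members tested, 17 were called higher and 3 lower. Among the 264 with at least 30 counts in each group, 71 were called higher and 61 lower, and the median was 0.05 on the log2 scale. Calls with a log2 fold change of at least 1 numbered 11 higher and 3 lower among the 30. Among the 264 they numbered 16 and 7, so many of the large rises were in members low in SiCtrl. With a minimum total of 120 in place of 60, 62 of 205 were called higher and 54 lower, with a median of 0.047. The precision followed the depth. Members with totals of 60 to 119 had a median SE of 0.33 on the log2 scale and 40.4% were called. Those with at least 1000 counts had a median SE of 0.08 and 76.9% were called, 15 higher and 15 lower.

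The largest rise was that of LINC02873 (ENSG00000175728, chromosome 11, 130631289 to 130717352, plus strand), a spliced RNA in a gene-poor stretch in the region of the metalloprotease gene ADAMTS15. The start of LINC02873 lies over 100 kb from any coding start. Its span overlaps another counted row, so part of its counts may be reads of that row. The CPM of LINC02873 was 1.43, 2.72 and 2.24 in the SiCtrl libraries and 16.8, 13.7 and 9.05 in the SiSFPQ libraries. Every SiSFPQ library stood above every SiCtrl library, a condition of the choice, and the log2 fold change was 2.56 ± 0.43 (SE; edgeR, adjusted p = 1.7e-08). Its neighbour LINC02551 (ENSG00000254842, chromosome 11, 130807889 to 130865561, minus strand), 90.5 kb away, had CPM of 17.8, 20.4 and 24.7 in SiCtrl and 85.5, 82.2 and 69.8 in SiSFPQ. It rose by 1.91 ± 0.16 (SE; edgeR, adjusted p = 3.4e-30). LINC02873 had 9 counts over the SiCtrl libraries and LINC02551 had 88, and the SE of the second was the smaller. LINC02873 met the minimum total mainly through its 58 SiSFPQ counts, so its entry to the set was not independent of its rise. The adjusted p of LINC02873 is therefore given as a description.

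Well-counted rises were those of LINC02832, LINC01638 and LINC02780. LINC02832 (ENSG00000227308, chromosome 2, 219683549 to 219794542), 56.2 kb from the start of the anion exchanger gene SLC4A3, went from CPM of 129, 149 and 143 to 423, 436 and 472. The log2 fold change was 1.66 ± 0.08 (SE; edgeR, adjusted p = 8.9e-102), and no other counted row overlapped it. LINC01638 (ENSG00000233521, chromosome 22, 27159861 to 27225134), far from any coding start, had 66.4, 60.5 and 74.1 CPM in SiCtrl and 228, 202 and 238 CPM in SiSFPQ, a log2 fold change of 1.73 ± 0.10 (SE; edgeR, adjusted p = 2.6e-64). The groups of both genes lay far apart beside their spread. LINC02780 (ENSG00000284668, chromosome 1, 3976133 to 4093062) went from 254, 257 and 263 CPM to 640, 619 and 635 CPM, a rise of 1.29 ± 0.07 (SE; edgeR, adjusted p = 4.7e-84).

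The other large rises came from RNAs of a few CPM in SiCtrl. LINC02026 (chromosome 3, 193957372 to 194003674), whose nearest coding start is that of the Notch target gene HES1, 132471 bases away, had 3.57, 3.40 and 2.99 CPM in SiCtrl and 16.0, 21.2 and 10.3 CPM in SiSFPQ (log2 fold change 2.23). LINC01907 (chromosome 2, 230690065 to 230711470), which starts 1375 bases from CAB39 on the opposite strand, had 2.85, 2.72 and 4.49 CPM and then 17.6, 11.2 and 12.9 CPM (2.01). CAB39 encodes a scaffold protein that activates the kinase LKB1. LINC03086, LINC01010, LINC01615, LINC01694 and LINC01348 had log2 fold changes of 1.89, 1.88, 1.71, 1.65 and 1.58. LINC01010 lies on the opposite strand to the stress-regulated kinase gene SGK1, 25159 bases from its start, and overlaps the more abundant row ENSG00000293692. LINC01011 (log2 fold change 1.73) starts 20 bases from the start of the quinone reductase gene NQO2 on the same strand and shares exons with it, so its counts can hold NQO2 reads. In all of the 12 largest rises the groups did not overlap, a condition of the choice, and 6 of them had fewer than 30 counts over the SiCtrl libraries.

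The falls were smaller in size. LINC03033 (ENSG00000232774, chromosome 14, 61570405 to 61658696, plus strand) fell furthest, with 73.5, 59.1 and 82.3 CPM in SiCtrl and 22.1, 21.2 and 29.7 CPM in SiSFPQ. Its log2 fold change was -1.54 ± 0.16 (SE; edgeR, adjusted p = 1.7e-20). It overlaps LINC01303 on the opposite strand, which fell by 0.66 (edgeR, adjusted p = 7.0e-06), and exons of AL355916.2, a coding gene in GENCODE 29. LINC01087 (chromosome 2, 131637025 to 131649615) went from 32.8, 40.8 and 46.4 CPM to 16.0, 13.1 and 16.2 CPM (log2 fold change -1.40). The end of LINC01087 overlaps the start of LINC03124 on the same strand, and both fell.

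Further falls with ample counts were those of LINC01297, LINC01667 and LINC01666. LINC01297 (ENSG00000274827, chromosome 14, 19341050 to 19384587), at a locus of the POTE gene family, had 576, 599 and 564 CPM in SiCtrl and 250, 280 and 265 CPM in SiSFPQ. All SiSFPQ libraries were below all SiCtrl libraries, a condition of the choice for every one of the largest falls. LINC01297 fell by 1.12 ± 0.07 (SE; edgeR, adjusted p = 7.5e-64). LINC01667 (chromosome 21, 9781848 to 9839362) went from 153, 141 and 164 CPM to 83.2, 60.4 and 76.9 CPM (-1.06). LINC01666 (chromosome 21, 8759053 to 8880137) went from 72.8, 77.5 and 76.3 CPM to 38.9, 34.3 and 41.4 CPM (-0.99). LINC01297 belongs to a family of loci with near-identical copies, and how reads were shared between copies was not given, so its value may stand for more than the listed locus. Handling of reads with more than 1 possible origin was not given for LINC01667 and LINC01666 either. Their values may likewise not be specific to the listed loci.

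The remaining falls among the 12 largest were LINC01948 (-1.36), LINC01355 (-1.27), LINC02393 (-1.18), LINC03022 (-1.16), LINC02320 (-1.07), LINC02968 (-1.07) and LINC02207 (-1.0). 4 of these calls ended with DESeq2 on the unfiltered table: LINC01355 (adjusted p = 0.095), LINC02393 (0.087), LINC02320 (0.10) and LINC02968 (0.18). That of LINC02968 also ended with DESeq2 on the rows kept by edgeR's filter (0.093). Over all settings their adjusted p ran from 0.0020 to 0.095, 0.0011 to 0.087, 0.00052 to 0.11 and 0.0091 to 0.18. LINC02320 had 22.1, 12.9 and 10.5 CPM in SiCtrl, and its call was also lost without SiCtrl replicate 1 (edgeR, adjusted p = 0.11). That of LINC02968 was also lost without SiCtrl replicate 2 (edgeR, adjusted p = 0.090) and without SiSFPQ replicate 3 (0.057). LINC02968 lies in the pseudoautosomal region, whose sequence the X and Y chromosomes share. The table lists it in a row for each at the same position, and both rows count as members. Both were called lower, at -1.07 and -0.66, but they share their sequence and are not separate results. How reads were assigned between them was not given. LINC01355 has a listed exonic length of 6182 bases over a span of 4148, so its coordinates may not hold all that was counted. Of the 12 largest falls, 3 had fewer than 30 counts over the SiSFPQ libraries, LINC01355 among them with 20.

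**Figure D2:**
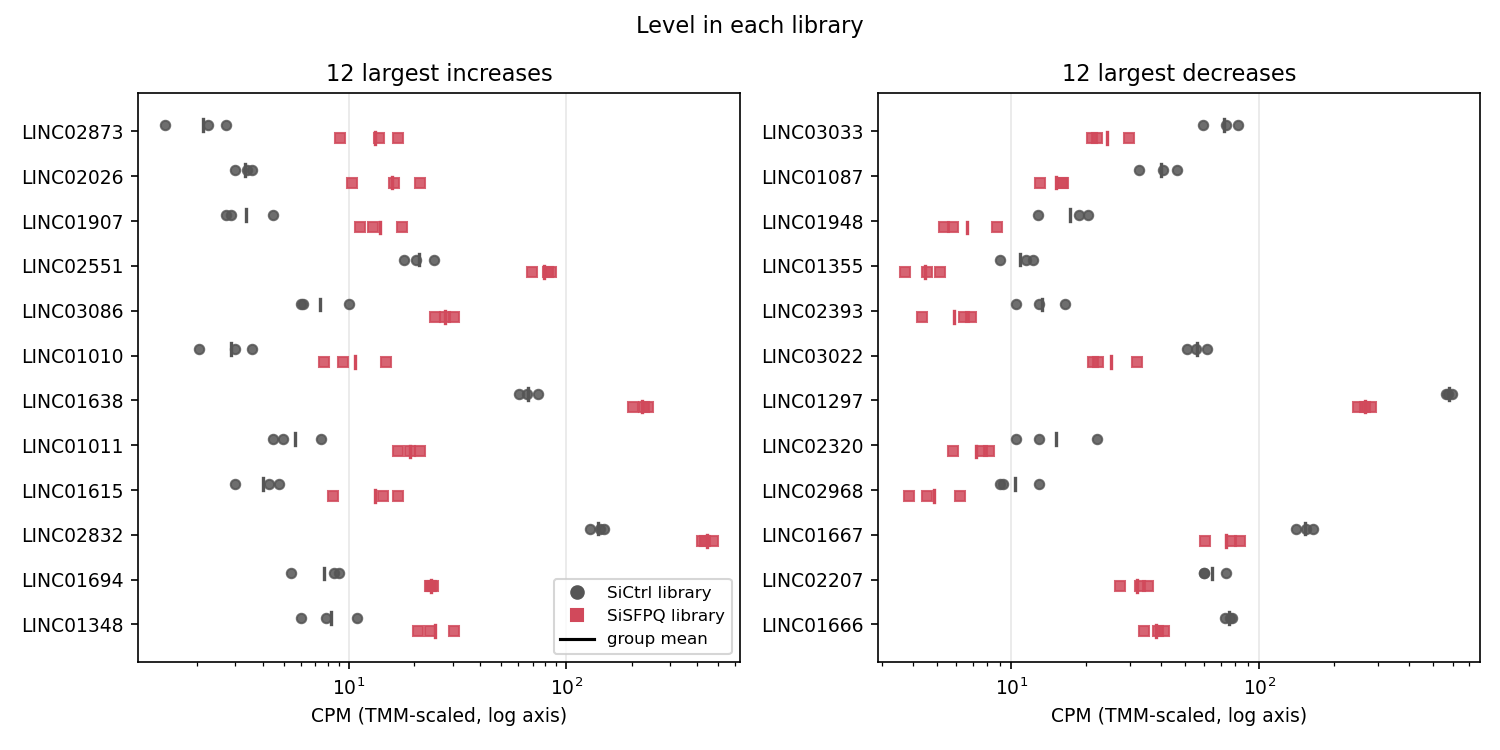
CPM (TMM-scaled, log axis) in each of the 3 SiCtrl libraries (circles) and 3 SiSFPQ libraries (squares) for the 12 members with the largest increases (left) and the 12 with the largest decreases (right), with short lines at group means. LINC02873 moves from at most 2.72 to at least 9.05 CPM and LINC01297 from at least 564 to at most 280 CPM.

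The promoter sequences of some of these members are shown so that the starts of RNAs that moved in opposite directions can be compared. Each is the stretch from 250 bases before to 50 after the RefSeq start on GRCh38.p14, for the 3 largest rises and the 3 largest falls whose RefSeq start lies within 500 bases of the start listed in the table. They lie at chr3:194003610-194003909 on the minus strand (LINC02026), chr20:2206678-2206977 on the plus strand (LINC03086), chr22:27224630-27224929 on the minus strand (LINC01638), chr14:61570290-61570589 on the plus strand (LINC03033), chr2:131636775-131637074 on the plus strand (LINC01087) and chr5:56481720-56482019 on the minus strand (LINC01948). Capitals mark each CG dinucleotide, the site of DNA methylation, which is dense in CpG islands and sparse elsewhere.
LINC02026: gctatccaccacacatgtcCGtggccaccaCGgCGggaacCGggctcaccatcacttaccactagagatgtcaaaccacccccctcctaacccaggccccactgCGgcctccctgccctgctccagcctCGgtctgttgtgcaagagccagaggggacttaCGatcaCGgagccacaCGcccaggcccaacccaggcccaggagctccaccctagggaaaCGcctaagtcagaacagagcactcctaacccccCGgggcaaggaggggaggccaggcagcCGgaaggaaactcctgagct
LINC03086: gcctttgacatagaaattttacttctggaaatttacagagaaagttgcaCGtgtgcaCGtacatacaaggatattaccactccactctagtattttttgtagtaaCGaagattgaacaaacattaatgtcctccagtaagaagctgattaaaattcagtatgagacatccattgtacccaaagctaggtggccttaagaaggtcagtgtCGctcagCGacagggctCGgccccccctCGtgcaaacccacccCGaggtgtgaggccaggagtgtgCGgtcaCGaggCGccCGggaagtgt
LINC01638: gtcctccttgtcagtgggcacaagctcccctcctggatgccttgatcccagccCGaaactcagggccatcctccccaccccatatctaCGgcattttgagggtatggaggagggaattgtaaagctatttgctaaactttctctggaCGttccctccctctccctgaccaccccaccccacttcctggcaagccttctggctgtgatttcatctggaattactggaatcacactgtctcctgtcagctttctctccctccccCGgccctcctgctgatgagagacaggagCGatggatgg
LINC03033: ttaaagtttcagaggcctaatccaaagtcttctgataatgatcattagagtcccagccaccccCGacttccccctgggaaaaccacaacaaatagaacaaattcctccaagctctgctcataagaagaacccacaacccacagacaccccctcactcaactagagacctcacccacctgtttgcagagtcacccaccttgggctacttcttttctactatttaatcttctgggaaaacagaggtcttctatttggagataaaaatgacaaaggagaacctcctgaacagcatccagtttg
LINC01087: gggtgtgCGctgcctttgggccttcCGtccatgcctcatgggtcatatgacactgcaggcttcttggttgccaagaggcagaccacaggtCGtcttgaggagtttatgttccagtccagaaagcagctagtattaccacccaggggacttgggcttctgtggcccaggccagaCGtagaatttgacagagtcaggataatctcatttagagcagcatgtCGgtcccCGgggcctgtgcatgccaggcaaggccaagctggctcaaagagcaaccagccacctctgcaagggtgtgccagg
LINC01948: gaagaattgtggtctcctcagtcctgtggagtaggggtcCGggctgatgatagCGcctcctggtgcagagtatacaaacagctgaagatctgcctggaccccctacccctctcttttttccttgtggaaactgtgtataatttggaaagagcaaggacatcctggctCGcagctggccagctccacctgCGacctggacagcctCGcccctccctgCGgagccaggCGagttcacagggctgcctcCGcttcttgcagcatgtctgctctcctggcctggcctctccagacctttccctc

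All 6 had fewer than 13 CG dinucleotides in 300 bases: LINC02026 and LINC03086 had 12 each, LINC01638 had 5, LINC03033 had 1, LINC01087 had 6 and LINC01948 had 8. The ratio of observed to expected CG was 0.41, 0.70 and 0.23 in the rising RNAs and 0.07, 0.25 and 0.32 in the falling ones. Across the 193 members with a RefSeq promoter, 58 (30.1%) were CG-rich, with an observed to expected ratio over 0.6 and a GC content over 50%, beside 46.8% of the 35116 promoters of the RefSeq table. That comparison set, used for the motifs below as well, was not limited to the tested non-coding rows. By call, 18 of 59 higher, 12 of 42 lower and 27 of 91 not called members were CG-rich, 30.5%, 28.6% and 29.7%. For 97 of the 193, the RefSeq start lay within 500 bases of the listed start, and the windows of the others may not be the promoters in use.

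Short motifs were searched on both strands of the same windows. The TATA box TATAAA was in 24 member promoters (12.4%, against 11.5% of all promoters), the CCAAT box CCAAT in 73 (37.8% against 34.6%) and the GC box GGGCGG in 62 (32.1% against 45.0%). The AP-1 motif TGANTCA was in 23 (11.9% against 7.71%) and the E-box CACGTG in 13 (6.74% against 7.26%). AP-1 is a stress-responsive pair of Fos and Jun proteins. Its motif was in 7 of 59 higher, 7 of 42 lower and 9 of 91 not called members, and the E-box in 2, 1 and 10 of the same. The TATA box was in 6, 3 and 15, the CCAAT box in 19, 19 and 35 and the GC box in 20, 15 and 27. None of these splits was tested. Of the 6 printed windows, that of LINC03086 held CACGTG and the other 5 held none of the 5 motifs.

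The most abundant members by CPM included changes in both directions. LINC03124 (ENSG00000287151, chromosome 2, 131647982 to 131773759) had the highest mean, with 661, 686 and 679 CPM in SiCtrl and 446, 443 and 420 CPM in SiSFPQ, a log2 fold change of -0.63 ± 0.06 (SE; edgeR, adjusted p = 1.1e-24). LINC02067 (chromosome 3, 161426427 to 161448242) went from 424, 446 and 442 CPM to 573, 529 and 511 CPM (log2 fold change 0.30). LINC01943 (chromosome 2, 87439522 to 87459111) had 295, 345 and 312 CPM and then 519, 483 and 511 CPM (0.67). It lies in the span of the row CYTOR on the other strand, which held 6468 counts in all, so the reads cannot be assigned to LINC01943 with certainty. Per kb of listed length, which allows comparison between genes, LINC01943 stood at 266 CPM per kb over the 6 libraries, LINC02067 at 171, LINC02780 at 113, LINC01089 at 93.6, LINC01297 at 60.4 and LINC03124 at 29.8. The row with the highest level by counts was thus the lowest of these 6 by length.

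**Figure D3:**
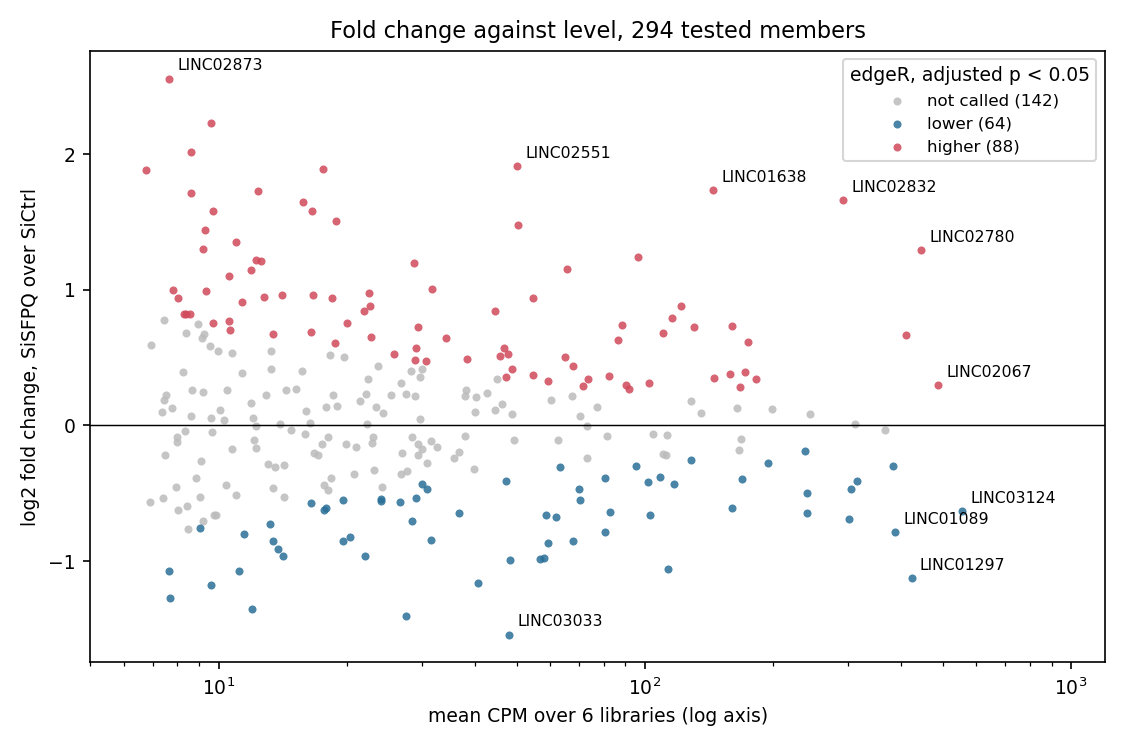
Log2 fold change of SiSFPQ over SiCtrl (vertical axis) against mean CPM over the 6 libraries (horizontal log axis) for the 294 tested members, coloured by call (88 higher, 64 lower, 142 not called at an adjusted p of 0.05, edgeR). LINC02832, LINC01638 and LINC02780 stand apart at high counts, and LINC02873 and LINC03033 mark the ends of the range.

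A list of 27 RNAs of this numbering that have been studied in other cells held 17 members, of which 6 were called higher, 6 lower and 5 not called. The called share was 70.6%, against 48.4% of all tested rows. The list was chosen with earlier results of these data known. Its members had a median SE of 0.13, against 0.21 for all tested members, and the difference in share was not tested. The median log2 fold change of the 17 was 0.12. LINC01234 (ENSG00000249550, chromosome 12, 113583886 to 113773686), studied as a growth-promoting RNA in carcinomas, had 29.3, 21.7 and 29.2 CPM in SiCtrl and 68.7, 73.5 and 79.5 CPM in SiSFPQ. The groups did not overlap, and it rose by 1.48 ± 0.16 (SE; edgeR, adjusted p = 6.9e-20). LINC01615, which neighbours the thrombospondin gene THBS2, rose from 4.28, 4.76 and 2.99 CPM to 8.40, 14.3 and 16.8 CPM. LINC01128, which overlaps the larger row LINC00115, rose by 0.40 and LINC01535 by 0.44. Of these, the call of LINC01535 ended with DESeq2 on the unfiltered table (adjusted p = 0.083; 0.00030 to 0.083 over all settings).

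LINC01089, also known as LIMT, a metastasis-restraining RNA that EGF lowers in mammary cells, fell from 500, 476 and 494 CPM to 293, 276 and 282 CPM, a log2 fold change of -0.79 ± 0.07 (SE; edgeR, adjusted p = 5.9e-31). It starts 274 bases from the histone methyltransferase gene SETD1B on the opposite strand and overlaps exons of RHOF. LINC01572 changed by -0.47, with a call that ended with DESeq2 on the unfiltered table (adjusted p = 0.053; 0.00052 to 0.053 over all settings). LINC01116, in the HOXD region, and LINC02381, in the HOXC region, had log2 fold changes of -0.26 (edgeR, adjusted p = 0.019) and -0.19 (0.029). Each lost its call in 6 of 16 alternative fits, with adjusted p of up to 0.19 and 0.28. With plain library totals both were lost (edgeR, adjusted p = 0.087 and 0.16). LINC01116 was also lost without SiCtrl replicate 2 (0.084) or SiSFPQ replicate 3 (0.10), and LINC02381 without SiCtrl replicate 2 (0.076) or SiSFPQ replicate 1 (0.28).

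LINC01133, an RNA reported to bind the splicing factor SRSF6, rested on 1 library. It had 16, 3 and 24 counts in SiCtrl and 21, 24 and 28 in SiSFPQ, so the groups overlapped. The log2 fold change was 0.67 (edgeR, adjusted p = 0.036), and without SiCtrl replicate 2 it was 0.15 (edgeR, adjusted p = 0.72). Its call was lost in 8 of 16 alternative fits, also without SiSFPQ replicate 1 (0.12) or SiSFPQ replicate 3 (0.12), over a range of 0.0015 to 0.72. With limma-voom the value was 1.10 (adjusted p = 0.094). LINC01123, an RNA activated by Myc in lung tumour cells, differed by 0.65 on the log2 scale (edgeR, adjusted p = 0.0084), lost without SiCtrl replicate 3 (0.51, adjusted p = 0.073) or SiSFPQ replicate 1 (0.42, adjusted p = 0.16) and with DESeq2 (up to 0.16), over a range of 0.0025 to 0.16. LINC01977 had one of -0.43 at the edge of the threshold (edgeR, adjusted p = 0.0497), which was lost in 11 of 16 alternative fits, with a range of 0.014 to 0.33. Among these 11 were the fits without SiCtrl replicate 1 (0.21), SiCtrl replicate 2 (0.063), SiSFPQ replicate 1 (0.096) or SiSFPQ replicate 3 (0.33).

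The 5 not called were LINC01278 (log2 fold change 0.08 ± 0.08, SE), LINC01138 (0.12 ± 0.08), LINC01503 (0.16 ± 0.15), LINC01232 (0.13 ± 0.22) and LINC01605 (-0.21 ± 0.10). LINC01138 is known to bind the arginine methyltransferase PRMT5, and LINC01503 is driven by p63 in squamous carcinomas. LINC01138 had 173, 195 and 204 CPM in SiCtrl and 192, 204 and 224 CPM in SiSFPQ, and the groups overlapped. It lies in duplicated sequence on chromosome 1, so its counts can be shared with copies.

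**Figure D4:**
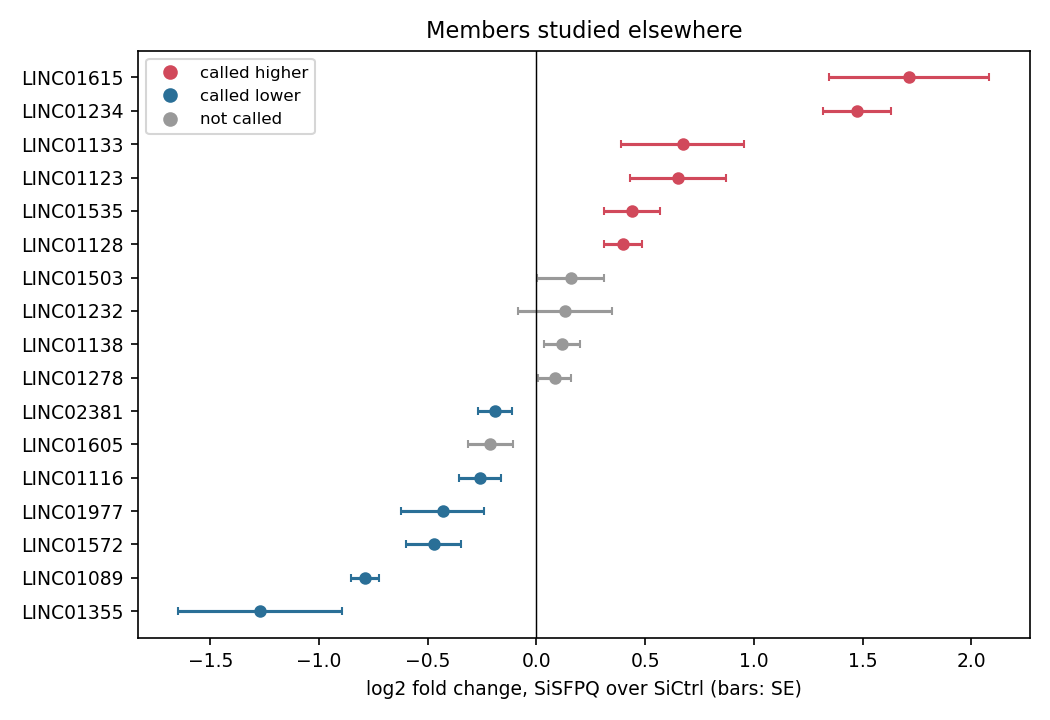
Log2 fold change of SiSFPQ over SiCtrl (horizontal axis, bars are SE of the edgeR fit) for the 17 members of the list of RNAs studied in other cells, coloured by call. LINC01615 and LINC01234 lie highest, at 1.71 and 1.48, and LINC01355 lowest, at -1.27.

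Among members that lie near each other there were 17 pairs within 100 kb, of which 8 overlapped. In 7 pairs both members were called, 5 in the same direction and 2 in opposite directions, and LINC01128 is in both of the latter. Taken singly, 51.7% of tested members were called, beside 48.4% of all tested rows, and the pair counts were not tested. In a further 7 pairs 1 member was called, and in 3 neither was. The pairs called in the same direction were LINC02873 with LINC02551 and LINC01270 with LINC01271, which rose, and LINC01303 with LINC03033, LINC01087 with LINC03124 and LINC01977 with LINC01978, which were lower. LINC01303 with LINC03033 and LINC01087 with LINC03124 overlap and can share reads. The call of LINC01977 was lost in 11 of 16 alternative fits. LINC01270 (136, 143 and 135 CPM in SiCtrl, 216, 209 and 209 CPM in SiSFPQ) and LINC01271 (97.1, 104 and 93.5 CPM, then 170, 149 and 171 CPM) overlap on opposite strands on chromosome 20 and can share reads. Their nearest coding start is that of CEBPB, a transcription factor gene of the stress response.

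At the start of chromosome 1, 3 members next to each other alternated in direction. LINC01409 had 14.3, 17.0 and 18.0 CPM in SiCtrl and 11.5, 11.2 and 7.11 CPM in SiSFPQ (log2 fold change -0.73 ± 0.28, SE; edgeR, adjusted p = 0.023). Its total was 113 counts, and its value under the alternative fits is not given here. LINC01128, 15.1 kb further on the same strand, had 133, 152 and 160 CPM and then 189, 209 and 187 CPM (0.40). LINC02593, 48.0 kb beyond and on the opposite strand, had 390, 311 and 377 CPM and then 265, 280 and 262 CPM (-0.41; edgeR, adjusted p = 2.5e-08). LINC01128 was higher in every SiSFPQ library, and both of its neighbours were lower. LINC01409 and LINC01128 both overlap the larger row LINC00115 (4419 counts) on the opposite strand, and LINC02593 overlaps ENSG00000272438 (3166 counts), so part of each value may be reads of those rows. LINC03057, in the HOXB region, rose by 0.94 from 36.4, 34.7 and 41.1 CPM to 82.5, 61.7 and 72.4 CPM, while LINC02086, which overlaps it on the opposite strand, stood at -0.08 (edgeR, adjusted p = 0.75). The difference within these pairs was not tested.

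**Figure D5:**
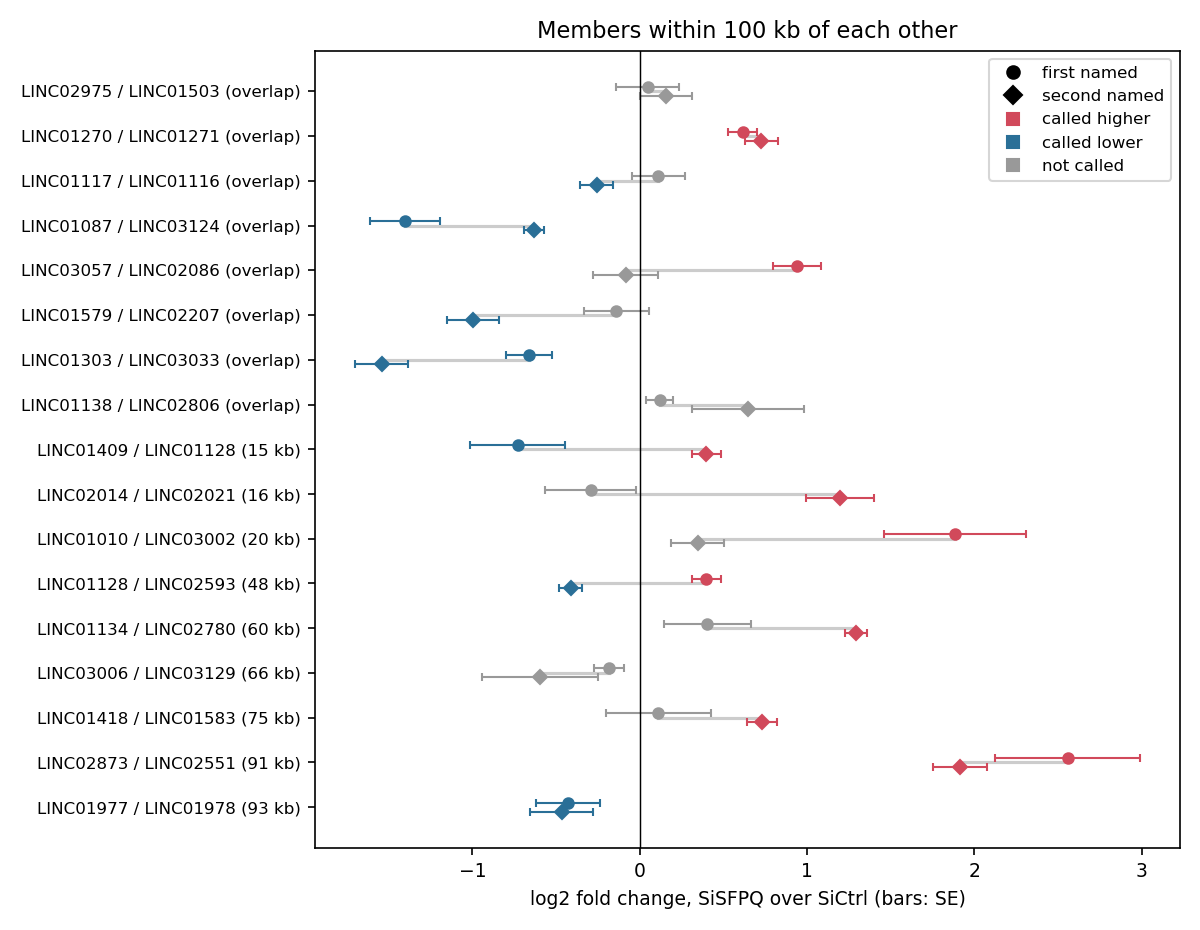
Log2 fold change of SiSFPQ over SiCtrl (horizontal axis, bars are SE of the edgeR fit) for the 17 pairs of members within 100 kb of each other, labelled with their distance or as overlapping, circles for the first and diamonds for the second name. LINC02873 and LINC02551 lie furthest to the right, at 2.56 and 1.91, and the LINC01128 pairs straddle 0.

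The remaining properties are given as descriptions, and none of the splits was tested. Over all tested rows 24.5% were called higher and 24.0% lower, and over all tested members 29.9% and 21.8%. The other rows of the table were not split by these properties. The 96 members spanning over 100 kb had 19 higher (19.8%) and 23 lower (24.0%) calls and a median of -0.10 (log2). The 198 shorter ones had 69 higher (34.8%) and 41 lower (20.7%) calls and a median of 0.19. Ranked against the fold change, listed length had a Spearman rho of -0.14, span one of -0.11, total count one of -0.10 and distance to the nearest coding start one of -0.08 across the 294 members, which share the libraries and are not independent. The 33 members starting within 5 kb of an opposite coding start had 10 higher and 8 lower calls and a median of 0.26, and the other 261 one of 0.07. Members overlapping another counted row had 59 higher (30.1%) and 41 lower (20.9%) calls of 196, and those overlapping none 29 (29.6%) and 23 (23.5%) of 98. Among numbers 1000 to 1999 there were 43 higher and 30 lower calls of 140, among 2000 to 2999 there were 38 and 28 of 127, and among 3000 to 3999 there were 7 and 6 of 27.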

How the data were processed

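The authors deposited 1 table of unnormalised whole-number read counts for 6 libraries. Poly(A) RNA from TRIzol extracts went into stranded libraries, per the labels' protocols. Aligner, counting program and build: not given in the sources used here. The table shares 13886 gene identifiers with GENCODE 29 (GRCh38); the chromosome matched for 13886 and the position overlapped for 13874, so positions are read as GRCh38. Of the 295 members, 26 had the same start and end there, and 12 had no identifier in that release, so overlaps with coding exons are approximate.

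The whole table was fitted in R 4.3.3 by edgeR 4.0.16 (robust quasi-likelihood on the group, two-sided) after filterByExpr and TMM scaling, with Benjamini-Hochberg adjustment and calls at 0.05. CPM is TMM-scaled. The fit was tested on simulated data. Alternatives were other scalings and filters, DESeq2 1.42.0, limma 3.58.1 (voom), a replicate block, leaving out each library, and narrower or wider member sets. The labels do not say that libraries came from separate cultures, so p-values measure the spread between these samples, which may be technical. No pair of libraries was a duplicate: chi-square per degree of freedom within groups was 1.19 to 1.33, with p of at most 4.0e-32.

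The members and lists were chosen with earlier results of these data known. Named genes were the 12 largest rises and 12 largest falls among called members without overlap of groups, the 6 most abundant members, called members of the list of studied RNAs, and rows beside the threshold. Others are examples chosen after their values were seen. Of the studied RNAs' list, 10 names were not members. Promoters came from RefSeq and matched 193 members by symbol.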

Additional observations from a re-analysis of the deposited data

How the results depend on the processing

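Scaling by RLE or upper quartile, a stricter or no filter, limma-voom, fitting rows without coding exon overlap alone, and adding LINC01405 back kept the member calls within 1.5 times of 88 higher and 64 lower. The widest departure among these was without the low-count filter, with 67 higher and 50 lower, so 117 of the 152 calls were kept. With the stricter filter 78 were higher and 59 lower. Leaving out each library in turn gave 70 to 84 higher and 54 to 58 lower, with a median log2 fold change of 0.039 to 0.10, lowest without SiCtrl replicate 2. DESeq2 gave 43 higher and 32 lower, and on the rows kept by edgeR's filter, an alternative chosen after seeing the data, 54 and 42; all 75 and 96 were among the edgeR calls in the same direction, and why fewer were called was not tested. Under plain library totals, 97 rose and 54 fell, with a median of 0.16, where the median of all rows moved to 0.07, and a SiCtrl sum of 16335 CPM. A minimum total of 120 gave a median of 0.047. Replicate numbers did not pair the libraries: deviations of same-numbered libraries correlated at -0.005, 0.001 and 0.010. With a replicate block, 86 members were called higher and 63 lower. Of the 152 called members, 97 kept their call and direction with every library left out, and 75 did so in each of the 15 alternative fits of the whole table, 43 higher and 32 lower; the fit without coding exon overlap, which leaves members out, is not among these 15. Of 605 values of the 38 named members, 560 kept direction and call, 45 lost the call, spread over 11 members, and 0 reversed. Low counts limit the members with totals near 60.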
